A study of Mus musculus with 52 samples.

Results

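Ribosome footprints from the endoplasmic reticulum (ER) fraction of mouse embryonic fibroblasts after 2 h of thapsigargin (Tg) were compared gene by gene with footprints from the ER fraction of untreated cells. Every gene with a score in both columns entered the comparison, which gave 11039 of the 22417 genes in the table. Per the labels, the fibroblasts of every group were heterozygous for CReP (CReP+/-) and wild type for GADD34 (GADD34+/+), so the untreated cells carry the same CReP allele as the treated ones. The groups used were ER footprints after 2 h of Tg, ER footprints at the other times of 0.5, 1 and 4 h, cytosol footprints and ER mRNA after 2 h, and their untreated counterparts. The study holds 52 samples in 26 groups of 2 replicates, but each group is given as 1 pooled score per gene. Replicate spread is therefore unknown for every difference below, and none was tested.

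Tg blocks the SERCA calcium pump, which empties the ER of calcium and disturbs the folding of secretory and membrane proteins. The unfolded protein response runs through several sensors. PERK phosphorylates eIF2 alpha, which lowers initiation on most mRNAs while a few mRNAs with upstream reading frames are translated better. IRE1 splices Xbp1 mRNA, and ATF6 is cut to release a transcription factor. GADD34 (Ppp1r15a) and CReP (Ppp1r15b) direct a phosphatase to eIF2 alpha and so reverse what PERK does. mRNAs of secreted and membrane proteins are mostly translated on ribosomes bound to the ER, which is why the ER fraction is read apart from the cytosol.

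The scale of the scores is not stated by the authors, and no counts were analysed here, so the depth behind a score is unknown. The ER columns summed to 456452 at 2 h and to 447133 in untreated cells. Whether columns were scaled to each other is not stated, so a loss of translation common to all genes cannot be read from them. Cells were pooled in bulk, and fewer cells of a type cannot be told apart from less RNA per cell. Of 11 fibroblast markers 10 had a score in both columns, from 3.58 to 1310 and summing to 2623 at 2 h, against 18.1 to 3653 and 6243 in untreated cells; Fap was blank. Of 8 markers of epithelial, endothelial and blood cells, 0 had a score at 2 h and 5 had one in untreated cells, at most 1.16 (Cd68). All differences are log2(2 h score + 1) minus log2(untreated score + 1), which understates the change of genes with low scores, and a gene is called over 2-fold when this exceeds 1 in size.

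In the ER fraction 733 genes (6.64% of those compared) exceeded 2-fold upward after 2 h of Tg and 511 (4.63%) downward, around a median log2 difference of 0.03. The highest gene was Rcan1, which encodes an inhibitor of the calcium-dependent phosphatase calcineurin, followed by the stress factors Ddit3, Ppp1r15a and Atf4. Low among genes of above-median level were the cell surface proteoglycan Gpc1, at 21.01 after 2 h and 104 in untreated cells (-2.25), and the secreted peptide Apln, at 12.4 after 2 h and 57.8 in untreated cells (-2.14). A column of TRUE and FALSE without a header divides the genes into those called marked and unmarked here. Among the genes compared it marks 37 of 38 ER chaperones, 33 of 36 matrix proteins and 0 of 80 ribosomal proteins. Marked genes had a median of -0.40 (quartiles -0.77 and 0.03), with 61 of 2517 over 2-fold higher and 360 lower, or 2.42% and 14.3%. Unmarked genes had a median of 0.13 (quartiles -0.23 and 0.51), with 672 of 8522 higher and 151 lower, or 7.89% and 1.77%. The median of marked genes thus lay 0.53 below that of unmarked genes.

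**Figure D1:**
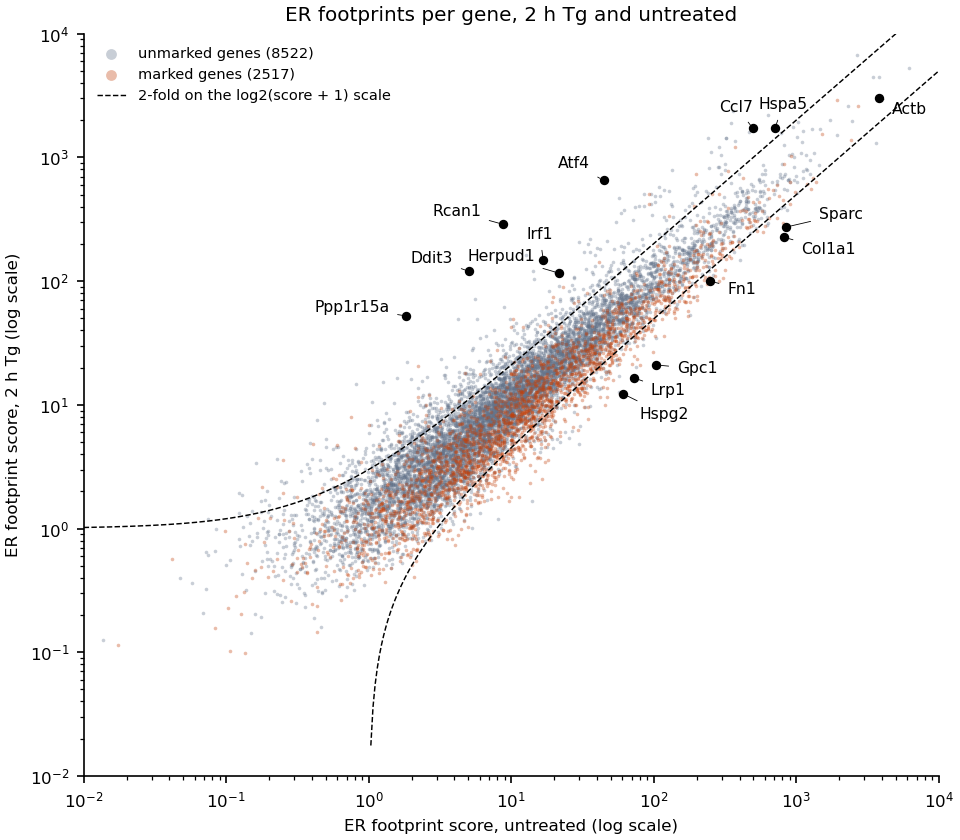
ER footprint score of each gene after 2 h of Tg (vertical, log scale) against untreated cells (horizontal, log scale), for 2517 marked and 8522 unmarked genes, 1 pooled score per group. Dashed lines mark a 2-fold difference of score + 1; Rcan1, Ddit3, Ppp1r15a and Atf4 lie far above them, and Col1a1, Gpc1, Lrp1 and Hspg2 below.

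Few genes were scored at 2 h alone. A score at 2 h but not in untreated cells was held by 34 genes, with a median of 1.33 and the chemokine Cxcl2 highest at 23.6. A score in untreated cells alone was held by 1637 genes, with a median of 0.33, and only 1 of them, the S100 protein S100a7a at 11.98, exceeded 10. The meaning of a blank is unknown, so no fold is given for these genes.

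The mRNAs whose upstream reading frames favour translation under eIF2 alpha phosphorylation included Ddit3, Ppp1r15a and Atf4, which follow Rcan1 in the ranking. Of 8 such genes 5 were over 2-fold higher at 2 h and 0 lower, with a median of 1.60. Atf4, the transcription factor at the centre of the response, scored 652 at 2 h and 44.5 in untreated cells, a difference of 3.84. Ddit3, which encodes the transcription factor CHOP, scored 120 at 2 h and 5.06 in untreated cells (4.32). Ppp1r15a scored 52.4 at 2 h and 1.82 in untreated cells (4.24). These 3 genes were already high at 0.5 h, at 373, 44.7 and 34.3, and at 4 h stood at 588, 128 and 59.3, close to their 2 h scores. Atf5, another transcription factor of this response, scored 40.5 at 2 h and 10.4 in untreated cells (1.87) and had been higher at 1 h, at 75.2. The constitutive partner Ppp1r15b, of which these cells carry 1 wild-type allele, scored 6.22 at 2 h and 8.84 in untreated cells, a difference of -0.45.

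Ddit3 differed in footprints more than in mRNA. Its ER mRNA score was 269 at 2 h and 122 in untreated cells, a difference of 1.13, and its ribosome density, the authors' ratio of footprints to mRNA, was 0.445 at 2 h and 0.0390 in untreated cells. Atf4 mRNA scored 93.1 at 2 h and 23.9 in untreated cells (1.92), and its density was 7.63 at 2 h and 1.99 in untreated cells. Both readouts of Atf4 were thus higher by a similar amount, 1.92 in mRNA and 1.94 in density on the log2 scale. Ppp1r15a mRNA scored 24.5 at 2 h and was blank in untreated cells, so its density could not be compared.

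Targets of ATF4 and CHOP were higher as a group. Of 22 listed genes found, 19 had both scores, 10 were over 2-fold higher and 0 lower, and the median was 1.07. Atf3, a transcription factor induced by many stresses, scored 71.3 at 2 h and 5.57 in untreated cells (3.46). Chac1, which degrades glutathione, scored 49.5 at 2 h and 5.77 in untreated cells (2.90). Trib3, a pseudokinase that binds CHOP and the kinase AKT, scored 34.98 at 2 h and 6.07 in untreated cells (2.35). Atf3 and Chac1 differed little between 2 and 4 h, while Trib3 reached 66.1 at 4 h. The list's median was -0.25 at 0.5 h, 0.66 at 1 h and 1.69 at 4 h, so its 2 h value lies between those of the neighbouring times. The proapoptotic gene Bbc3 was at 1.44 but scored only 2.96 at 2 h and 0.46 in untreated cells.

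Genes for amino acid supply and charging did not share this shift at 2 h. Of 19 genes for amino acid synthesis and transport 1 was over 2-fold higher and 2 lower, with a median of 0.03. The higher one was Slc3a2, the heavy chain of several amino acid transporters, with 333 at 2 h and 129 in untreated cells (1.36). The transporters Slc7a6 (-1.29) and Slc1a5 (-1.22) were the lower ones. Among 20 cytosolic aminoacyl-tRNA synthetases the valyl enzyme Vars was lower, at 18.7 after 2 h and 47.8 in untreated cells (-1.31), and 0 were higher around a median of 0.02. At 4 h the medians of the lists were 0.93 and 0.64.

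The promoters of 4 genes with high differences in ER footprints are shown because each carries the letters TGATGCAA on one strand, the sequence that ATF4 with a C/EBP partner is known to bind (CARE). Capitals mark the match, here on the minus strand relative to the gene and so read as its reverse complement. The windows run from 250 bases before to 50 after the gene's start, 300 bases in all, from RefSeq on GRCm38.p6: Atf3 at chr1:191183284-191183583 (minus strand), Chac1 at chr2:119350992-119351291 (plus), Herpud1 at chr8:94386179-94386478 (plus) and Gadd45g at chr13:51846425-51846724 (plus).
Atf3: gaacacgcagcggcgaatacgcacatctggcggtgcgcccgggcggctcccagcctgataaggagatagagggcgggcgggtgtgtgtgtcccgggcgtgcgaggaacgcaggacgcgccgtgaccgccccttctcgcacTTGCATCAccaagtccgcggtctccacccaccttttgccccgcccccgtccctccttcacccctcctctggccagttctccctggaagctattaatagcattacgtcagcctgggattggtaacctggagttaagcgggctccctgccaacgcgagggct
Chac1: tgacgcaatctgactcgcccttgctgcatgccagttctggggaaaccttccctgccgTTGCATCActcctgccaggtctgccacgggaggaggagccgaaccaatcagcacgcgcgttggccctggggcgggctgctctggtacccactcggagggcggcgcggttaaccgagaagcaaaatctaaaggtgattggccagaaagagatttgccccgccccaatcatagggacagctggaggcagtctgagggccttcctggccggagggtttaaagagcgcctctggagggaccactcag
Herpud1: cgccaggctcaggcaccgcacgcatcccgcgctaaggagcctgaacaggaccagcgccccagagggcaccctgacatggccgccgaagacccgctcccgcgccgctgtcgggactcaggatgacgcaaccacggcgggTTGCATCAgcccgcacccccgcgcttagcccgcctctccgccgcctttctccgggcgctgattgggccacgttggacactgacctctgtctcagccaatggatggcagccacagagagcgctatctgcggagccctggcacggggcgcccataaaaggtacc
Gadd45g: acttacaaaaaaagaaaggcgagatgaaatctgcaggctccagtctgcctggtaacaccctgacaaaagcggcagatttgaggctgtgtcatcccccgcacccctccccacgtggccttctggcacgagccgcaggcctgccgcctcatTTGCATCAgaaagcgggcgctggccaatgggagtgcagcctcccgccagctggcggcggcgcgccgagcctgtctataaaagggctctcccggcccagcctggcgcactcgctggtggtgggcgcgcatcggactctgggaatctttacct
The matches begin at position -110 in Atf3, -193 in Chac1, -112 in Herpud1 and -101 in Gadd45g, counted from the start of the gene. Of all 32851 RefSeq promoter windows counted singly, 294 held this motif on either strand (0.895%). A gene, by contrast, counts as holding this motif if any of its windows does. Of 16 ATF4 and CHOP targets with a window 6 held it (37.5%): Atf3, Chac1 and Nupr1, with ER differences of 3.46, 2.90 and 1.28, and Slc7a11, Vldlr and Jdp2, with 0.44, -0.47 and -0.80. The motif therefore occurred in listed targets that were high and in targets that were not. Across all genes compared the count is void, because only 8592 (77.8%) had a window and 80% were needed.

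ER chaperones and folding enzymes as a group were not higher at 2 h, but a few were. Of 38 genes 4 were over 2-fold higher and 4 lower, with a median of -0.34. Hspa5, which encodes the main ER chaperone BiP, scored 1735 at 2 h and 711 in untreated cells (1.29). Sdf2l1, which works with BiP, scored 66.1 at 2 h and 27.6 in untreated cells (1.23). The BiP cochaperone Dnajb9 (79.7 at 2 h, 33.9 in untreated cells) and the ER selenoprotein Selk (405 and 191) were the others above 2-fold. At the other end the thiol oxidoreductases Erp44 (24.6 at 2 h, 72.6 in untreated cells, -1.52) and Txndc5 (68.0 and 179, -1.38) were lowest. Hsp90b1, the HSP90 of the ER, was within 2-fold at 1026 after 2 h and 915 in untreated cells (0.16). Median differences of the list were -1.18 at 0.5 h, -0.50 at 1 h and 0.29 at 4 h, so the list was lowest at 0.5 h and above untreated at 4 h. Hspa5 itself scored 3793 and Hsp90b1 1886 at 4 h.

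For Hspa5 footprints and mRNA differed alike. Its ER mRNA scored 882 at 2 h and 388 in untreated cells, a difference of 1.18, and its density differed by 0.09. Of 27 chaperones with ER mRNA in both columns 2 were over 2-fold higher and 0 lower (2.69% and 2.74% of 3687 genes), the other being Creld2, a folding factor induced by ER stress, with mRNA of 36.2 at 2 h and 12.1 in untreated cells and a footprint difference of 0.11. The promoter windows of Hspa5 (chr2:34771840-34772139, plus strand) and Hsp90b1 (chr10:86705395-86705694, minus strand) are shown, from the same build, because both carry the ER stress element (ERSE), the letters CCAAT and CCACG with 9 bases of any kind between them, which ATF6 and XBP1 are known to bind with NF-Y. Capitals mark the matches on either strand.
Hspa5: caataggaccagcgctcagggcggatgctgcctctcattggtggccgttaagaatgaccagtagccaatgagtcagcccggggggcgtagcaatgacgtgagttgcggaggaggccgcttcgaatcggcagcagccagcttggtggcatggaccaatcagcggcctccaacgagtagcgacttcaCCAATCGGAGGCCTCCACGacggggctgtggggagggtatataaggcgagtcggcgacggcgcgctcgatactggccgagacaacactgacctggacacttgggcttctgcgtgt
Hsp90b1: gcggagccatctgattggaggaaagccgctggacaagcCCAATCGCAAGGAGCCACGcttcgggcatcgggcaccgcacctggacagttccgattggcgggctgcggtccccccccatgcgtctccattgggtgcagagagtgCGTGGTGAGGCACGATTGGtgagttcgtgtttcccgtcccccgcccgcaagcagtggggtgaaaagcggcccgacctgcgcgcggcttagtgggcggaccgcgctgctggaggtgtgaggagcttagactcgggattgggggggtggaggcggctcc
Hspa5 holds 1 match on the plus strand, beginning at position -65, and Hsp90b1 holds 2, of which the first begins at -212 and the other lies on the opposite strand. The element occurred in 39 of 32851 windows counted singly (0.119%), a unit unlike that of genes, which count if any window matches. It was found in 8 of 33 chaperones with a window (24.2%): Hspa5, Dnajc3, Hsp90b1, Creld2, Ero1lb, Calr, Pdia6 and Canx. Of these only Hspa5 was over 2-fold higher at 2 h, and the other 7 lay between -0.42 and 0.22.

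The remaining parts of the response were mostly within 2-fold. Among 12 sensors and transcription factors of the unfolded protein response Xbp1 was higher, with 69.2 at 2 h and 22.2 in untreated cells (1.60), and Creb3l1, a membrane-bound transcription factor of secretory cells, was lower at -1.04, with 2.74 at 2 h and 6.69 in untreated cells. Genes of ER-associated degradation had a median of -0.28 over 24 genes. Herpud1, a membrane scaffold of the degradation complex, scored 116 at 2 h and 21.6 in untreated cells (2.38). At 4 h Herpud1 scored 255.

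**Figure D2:**
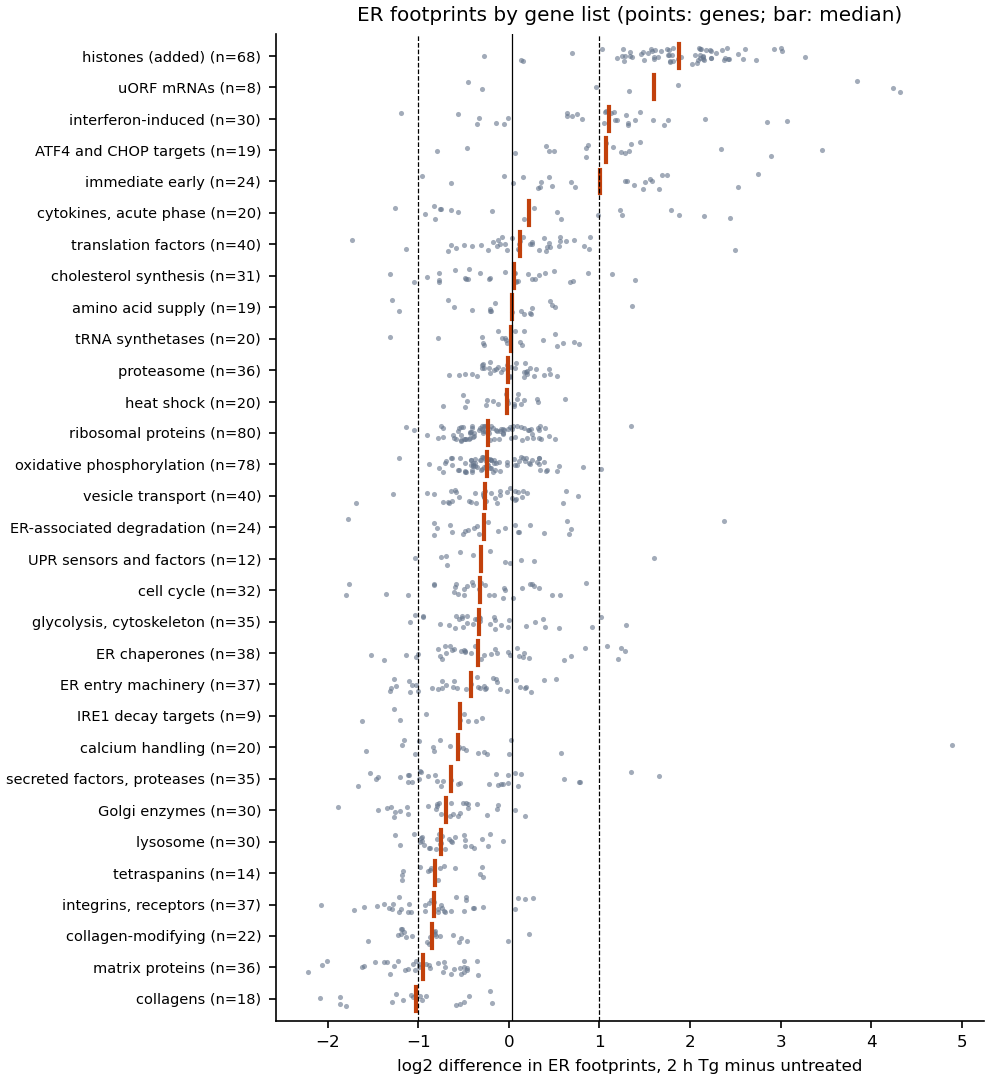
Log2 difference in ER footprints, 2 h Tg minus untreated, for every gene (points) of 31 lists, with the list's median (bar). The solid line is the median of all genes and the dashed lines mark 2-fold; histones, upstream reading frame mRNAs, interferon-induced genes, ATF4 and CHOP targets and immediate early genes have the highest medians, and collagens and matrix proteins the lowest.

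Rcan1 and the Gadd45 genes were among the highest of the ranking. Rcan1 scored 288 at 2 h and 8.75 in untreated cells, a difference of 4.89. Over time it scored 8.75 in untreated cells and 112, 169, 288 and 76.8 after 0.5, 1, 2 and 4 h, so 2 h was its highest time. All 3 Gadd45 genes, whose products bind the cell cycle and stress kinase machinery and which were picked as a group after their values were seen, were over 2-fold higher. Gadd45a scored 163 at 2 h and 12.7 in untreated cells (3.59), Gadd45g 206 and 30.0 (2.74), and Gadd45b 357 and 59.1 (2.57). At 4 h Gadd45b and Gadd45g scored 104 and 47.9, below their 2 h scores, and Gadd45a 186. 4921524J17Rik, a gene of unknown function, was at 2.66 and completes the 15 highest together with 4 histones, Irf1, Klf10 and the genes above.

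Immediate early genes, which respond within minutes to signals, were high in part. Of 24 genes 12 were over 2-fold higher and 0 lower, with a median of 1.01. Klf10, a transcription factor of TGF beta signalling, scored 103 at 2 h and 14.5 in untreated cells (2.76). The nuclear receptor Nr4a1 scored 16.3 at 2 h and 1.99 in untreated cells (2.53), and the transcription factor Klf2 11.3 and 2.68 (1.74). Ptgs2, the inducible cyclooxygenase and the only marked gene of the list, scored 1204 at 2 h and 373 in untreated cells (1.69). The list's median was 0.95 at 0.5 h and 1.34 at 1 h but 0.26 at 4 h. Klf10 scored 33.2, 73.3, 103 and 23.997 at the 4 times of Tg, and Junb and Nfkbia, given here after their values were seen, were below 2 h by 1.88 and 1.72 at 4 h.

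Interferon-induced genes had one of the highest shares over 2-fold. Of 30 genes 18 were higher and 1, the membrane protein Ifitm1, lower, with a median of 1.10. Irf1, the transcription factor that opens part of this programme, scored 149 at 2 h and 16.8 in untreated cells (3.07). The antiviral GTPase Mx2 scored 15.2 at 2 h and 1.25 in untreated cells (2.85), and Rsad2, or viperin, 10.3 and 1.51 (2.16). Rtp4, a chaperone of membrane receptors that interferon induces, scored 143 at 2 h and 41.5 in untreated cells (1.76). Before 2 h the list was low, with medians of -1.81 at 0.5 h and -0.28 at 1 h, and at 4 h it was at 1.27. Against the 1 h column 19 of its genes were over 2-fold higher at 2 h and 1 lower (4.73% and 2.81% of 10727 genes), with a median of 1.34. Ifit1, whose product binds foreign RNA, scored 43.7 in untreated cells and 2.89, 16.5, 133 and 110 after 0.5, 1, 2 and 4 h. Ifit3 followed the same course, at 36.8 and then 6.98, 12.7, 93.2 and 88.6. Of 9 genes with ER mRNA in both columns 0 were over 2-fold higher or lower (2.69% and 2.74% of 3687 genes). Their mRNA median was 0.05. Irf1, Mx2 and Rtp4 are not among the 9, because their ER mRNA was scored at 2 h but blank in untreated cells. The 9 genes therefore cannot show whether mRNA of these high genes differed. Ifit1 mRNA differed by 0.49 and Ifit3 mRNA by -0.69.

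Cytokines were split. Of 20 cytokines and acute phase proteins 6 were over 2-fold higher and 1 lower, with a median of 0.22 that was -0.01 among genes above the median level. The chemokine Cxcl10 scored 510 at 2 h and 93.4 in untreated cells (2.44), and interleukin 6 (Il6) 49.4 and 10.3 (2.16). The chemokines Ccl20 (731 at 2 h, 198 in untreated cells, 1.88) and Ccl7 (1719 and 497, 1.79) were the next. All 4 were higher at 2 h than at 4 h, when they scored 369, 28.1, 298 and 1037. The lower gene was the acute phase protein Saa1, at 39.3 after 2 h and 95.4 in untreated cells. These are marked genes that did not share the low median of marked genes.

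**Figure D3:**
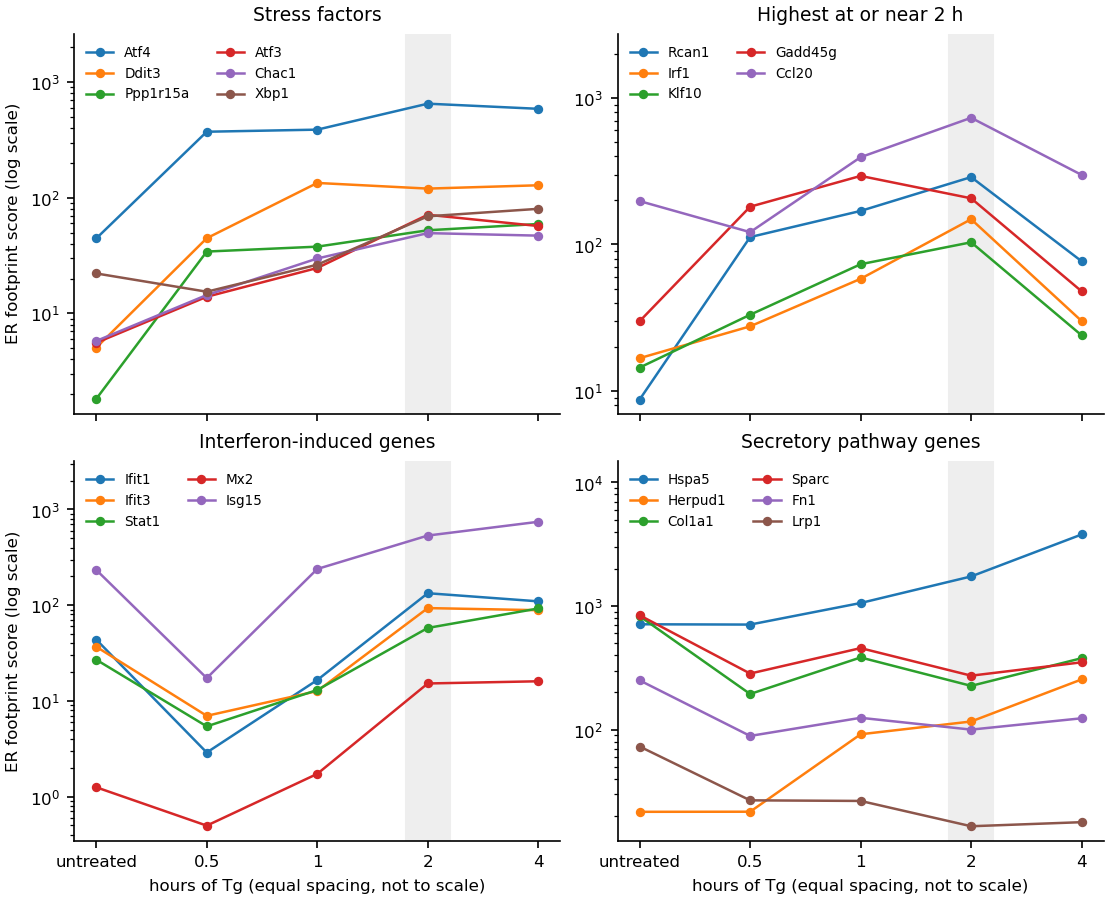
ER footprint scores (log scale) in untreated cells and after 0.5, 1, 2 and 4 h of Tg for genes named in the text, 1 pooled score per point, with the 2 h column shaded. Stress factors stay high from 2 to 4 h, Rcan1, Irf1 and Klf10 are highest at 2 h, interferon-induced genes dip at 0.5 h and are above untreated by 2 h, and Col1a1, Sparc, Fn1 and Lrp1 stay below untreated throughout.

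The client proteins of the ER made up most of the low end. Of 18 collagen chains with both scores 9 were over 2-fold lower at 2 h and 0 higher, with a median of -1.02. Col1a1, a chain of type I collagen, scored 226 at 2 h and 827 in untreated cells (-1.87). Col3a1 scored 21.2 at 2 h and 79.5 in untreated cells (-1.86), Col5a1 9.98 and 45.8 (-2.09) and the basement membrane chain Col4a1 5.57 and 21.8 (-1.80). Col5a2, by contrast, scored 354 at 2 h and 514 in untreated cells (-0.54). Enzymes that modify collagen followed, with 8 of 22 lower, 0 higher and a median of -0.85. They included the lysyl hydroxylases Plod2 (-1.23) and Plod3 (-1.19), the procollagen protease Bmp1 (-1.20) and Leprel4, which belongs to a hydroxylase complex (-1.56).

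Other matrix proteins were low as well. Of 36 genes 16 were over 2-fold lower and 0 higher, and the whole list lay between -2.22 and -0.34 around a median of -0.95. Hspg2, or perlecan, scored 12.3 at 2 h and 60.9 in untreated cells (-2.22), the laminin chain Lama5 6.23 and 29.4 (-2.07) and the microfibril protein Mfap2 2.91 and 14.8 (-2.01). Sparc, a collagen-binding glycoprotein, scored 273 at 2 h and 841 in untreated cells (-1.62), and fibronectin, Fn1, 99.9 and 250 (-1.32). Every one of these genes was below its untreated score at 2 h. Among 35 secreted growth factors, proteases and their inhibitors 9 were lower and 2 higher, with a median of -0.64. The metalloprotease inhibitor Timp3 scored 106 at 2 h and 308 in untreated cells (-1.53), and the IGF-binding protein Igfbp4 21.5 and 70.2 (-1.67). The growth factors Tgfb2 (1.65) and Vegfa (1.35) were the higher ones.

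ER mRNA of the matrix genes was not low in the same way. In 15 collagens with ER mRNA in both columns 0 were over 2-fold higher or lower, beside 2.69% and 2.74% of 3687 genes. The mRNA median of these collagens was -0.05. Their ribosome density, which shares the footprint scores, had a median of -0.95. For 22 matrix proteins the mRNA median was 0.06 and the density median -1.03, with 0 of them over 2-fold higher in density and 11 lower (9.22% and 10.4% of 3677 genes). Col1a1 mRNA scored 40.8 at 2 h and 23.7 in untreated cells, a difference of 0.76, beside -1.87 in footprints. Sparc was different, with mRNA of 103 at 2 h and 217 in untreated cells (-1.07). Timp3 (-1.22) and the matricellular protein Cyr61 (-1.19) were also over 2-fold lower in ER mRNA, and the 16 secreted factors with mRNA had an mRNA median of -0.60. Sparc is also on a list of mRNAs reported to be cut by IRE1. Of 9 such genes 3 were over 2-fold lower in footprints (Sparc, Hgsnat -1.27 and Galnt10 -1.20) and 0 higher, with a median of -0.54. Of the 9 genes 8 were marked, and 14.3% of all marked genes were over 2-fold lower, with a median of -0.40. Galnt10 scored only 3.42 at 2 h and 9.18 in untreated cells. With a pseudocount of 10 Hgsnat and Galnt10 stood at -0.70 and -0.51. Only Sparc was over 2-fold lower in ER mRNA among the 5 listed genes with both mRNA scores.

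**Figure D4:**
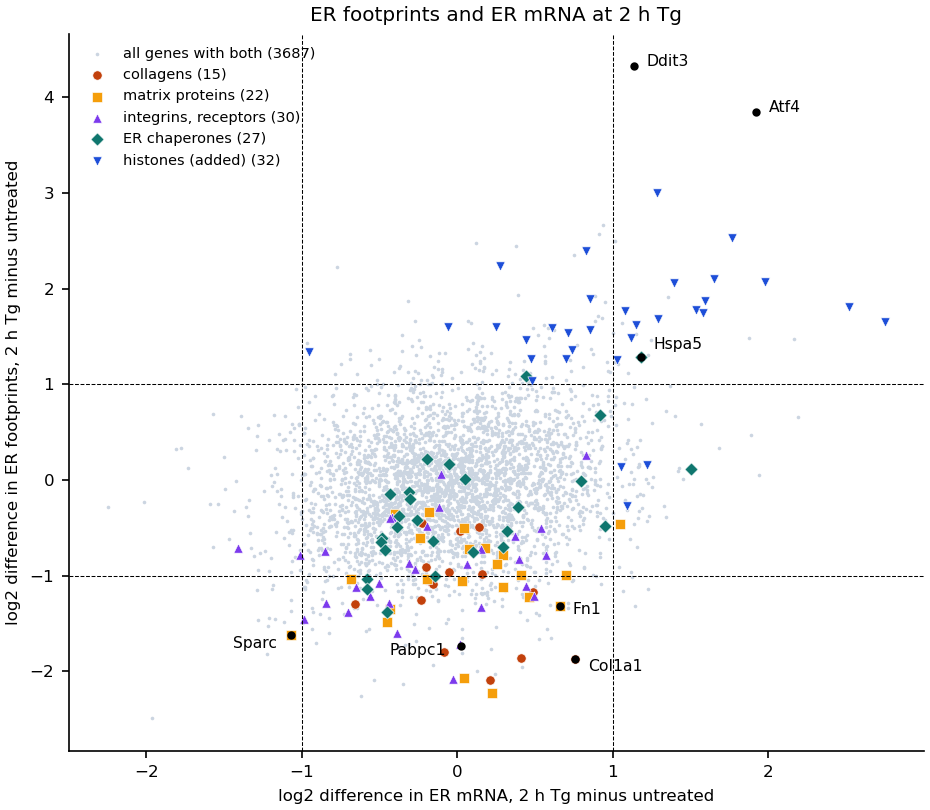
Log2 difference in ER footprints (vertical) against that in ER mRNA (horizontal), 2 h Tg minus untreated, for 3687 genes, with 5 lists in colour and 2-fold marked by dashed lines. Collagens and matrix proteins lie low in footprints and around 0 in mRNA, ER chaperones around 0 in both with Hspa5 high in both, and histones high in both.

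Cell surface proteins were also low. Of 37 integrins and other receptors 14 were over 2-fold lower and 0 higher, with a median of -0.83. The endocytic receptor Lrp1 scored 16.5 at 2 h and 72.9 in untreated cells (-2.08), and the integrin chains Itgb5 6.08 and 22.1 (-1.71), Itga3 13.98 and 44.3 (-1.60) and Itga6 3.34 and 10.9 (-1.45). Osmr, the oncostatin M receptor, was the highest of the list at 0.27. In 30 receptors with ER mRNA the mRNA median was -0.23. Of these 2, Cd44 (-1.41) and Itgb1 (-1.01), were over 2-fold lower in mRNA, beside 2.74% of 3687 genes. Of 14 tetraspanins, all marked, 3 were lower (Cd9 -1.18, Tspan4 -1.18 and Tspan5 -1.19) around a median of -0.82, beside 14.3% of all marked genes lower.

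Some genes of the secretory machinery had low scores. Of 37 genes for entry into the ER 9 were over 2-fold lower and 0 higher, with a median of -0.42. Rpn2, a subunit of the oligosaccharyltransferase, scored 94.7 at 2 h and 237 in untreated cells (-1.31), and Dad1 of the same complex 68.0 and 166 (-1.27). The ER sheet protein Ckap4 (-1.30) and the translocon-associated Tram1 (-1.25) were the next. Rpn2 mRNA was higher, at 35.9 after 2 h and 15.7 in untreated cells (1.14). The unmarked signal recognition particle genes of this list, whose products are cytosolic, were among its highest, with Srp54a at 0.51 and Srp19 at 0.39. In 40 genes of vesicle transport only the retrieval receptors Kdelr1 (35.9 at 2 h, 118 in untreated cells, -1.69) and Kdelr2 (110 and 269, -1.28), which return escaped ER proteins, were over 2-fold lower, and 0 were higher. Over all genes compared 4.63% were over 2-fold lower, and among marked genes 14.3%. Marked genes made up 30 of the 37 entry genes and 20 of the 40 transport genes.

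Golgi and lysosomal genes can be read against the 14.3% of marked genes that were over 2-fold lower. Golgi glycosylation enzymes had 9 of 30 lower, 0 higher and a median of -0.70, among them B4galt5 (-1.89), Man2a1 (-1.45), Galnt2 (-1.34) and Ext2, which builds heparan sulfate (-1.30). Of 30 lysosomal genes, all marked, 3 (below that share) were lower and 0 higher, with a median of -0.75: the hydrolases Gusb (-1.26), Glb1 (-1.21) and Man2b1 (-1.05). In calcium handling 4 of 20 were lower, and Rcan1 was the 1 higher gene. Atp2a2, the SERCA pump that Tg blocks, scored 55.9 at 2 h and 126 in untreated cells (-1.16), the Golgi pump Atp2c1 5.58 and 18.7 (-1.58) and the ER calcium sensor Stim1 1.61 and 4.93 (-1.18). Atp2a2 was back at 128 by 4 h, while Atp2c1 scored 8.42.

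Among genes of the cytosol and nucleus only a few groups stood out in the ER fraction. All 3 D cyclins, which drive entry into the cell cycle and were picked after their values were seen, were over 2-fold lower: Ccnd1 with 9.82 at 2 h and 35.9 in untreated cells (-1.77), Ccnd2 with 20.8 and 55.1 (-1.36) and Ccnd3 with 5.33 and 20.9 (-1.79). They were also over 2-fold lower in the cytosol, at -1.64, -1.10 and -1.64. Other unmarked genes at the low end were Odc1, the first enzyme of polyamine synthesis (12.8 at 2 h and 57.4 in untreated cells, -2.09, with -1.68 in the cytosol), the translation repressor Eif4ebp2 (-2.03) and the mitochondrial adenylate kinase Ak4 (-1.92). The predicted genes Gm5068, Gm6987 and Gm7040 are also among the 15 lowest and are uncertain, as is Prl2c4, which belongs to a family of near-identical prolactin-like genes. Plec, a cytoskeletal linker (-1.96), and Pxdn, a peroxidase that crosslinks collagen IV (-1.94), complete the 15.

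Translation factors held together apart from 3 genes. Of 40 genes the poly(A)-binding protein Pabpc1 was lower, at 53.4 after 2 h and 180 in untreated cells (-1.74), and the elongation factor subunit Eef1b2 as well (-1.14). The helicase Eif4a2 was higher, at 199 after 2 h and 34.5 in untreated cells (2.49). Pabpc1 mRNA in the ER differed by 0.02. For 80 ribosomal proteins the median was -0.23, with Rpsa (-1.13) and Rpl37a (-1.05) lower and Rpl41 (1.35) higher; such genes have many processed copies and are uncertain. Oxidative phosphorylation had a median of -0.24 over 78 genes, with Ndufb3 (1.02) higher and Atp5d (-1.22) lower. Proteasome subunits and cytosolic heat shock genes had 0 of 36 and 0 of 20 genes over 2-fold, with medians of -0.01 and -0.02; the abundant Psma3, Psma6, Hsp90aa1 and Hspa8 were at 0.02, 0.08, 0.05 and -0.73.

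Other housekeeping groups had few genes over 2-fold. Cholesterol synthesis had 2 of 31 genes higher, the isomerase Idi1 (1.14) and the sterol carrier Stard4 (1.39), and 2 lower, the sterol sensor Scap (-1.31) and the transcription factor Srebf2 (-1.05), around a median of 0.05. Glycolytic and cytoskeletal genes had a median of -0.34 over 35 genes, with Tpm2 (1.30) and Tmsb4x (1.01) higher and Tuba1b (-1.09) and Flna (-1.03) lower. Actb scored 3039 at 2 h and 3836 in untreated cells (-0.34), and Gapdh 714 and 827 (-0.21). The cell cycle list had 4 of 32 lower, the 3 D cyclins and Ccne2 (-1.11), and 0 higher.

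Histone genes, listed after their values were seen and uncertain because of near-identical copies, were the group with the most members over 2-fold. Of 68 genes 64 were higher and 0 lower, with a median of 1.88. Hist1h2bp scored 49.7 at 2 h and 4.25 in untreated cells (3.27), Hist1h2ah 466 and 56.6 (3.02) and Hist1h2bm 121 and 14.2. Their ER mRNA was also high, with 18 of 32 over 2-fold higher, 0 lower (2.69% and 2.74% of 3687 genes) and a median of 1.06. In the cytosol 51 of 68 were over 2-fold higher in footprints (11.3% of 9713 genes), with a median of 1.45. The median in the ER was 1.48 at 0.5 h, 2.24 at 1 h and 0.95 at 4 h.

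ER mRNA gives a readout that did not choose the genes at both ends, although the choice by footprints favours large footprint differences. It was scored in both columns for 3687 of the 11039 genes, of which 99 (2.69%) were over 2-fold higher and 101 (2.74%) lower. Of the 733 genes that were higher in footprints, 162 had both mRNA scores, with an mRNA median of 0.38, 31 over 2-fold higher and 0 lower. Another 95 had an mRNA score at 2 h only, among them Rcan1 (167) and Ppp1r15a, and 440 had none in either column. Of the 511 genes lower in footprints, 205 had both mRNA scores, with a median of -0.20, 13 over 2-fold lower and 4 higher. Over all genes marked ones had an mRNA median of -0.21 and unmarked ones of -0.04. The marked-minus-unmarked difference was -0.17 in mRNA, against -0.53 in footprints, for the genes each readout covers.

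The cytosol fraction of the same cells separated the groups further. Of 9713 genes with cytosol scores in both columns 1101 (11.3%) were over 2-fold higher at 2 h and 161 (1.66%) lower. Marked genes had a cytosol median of 0.70 and unmarked genes of 0.10, the opposite order to the ER. Genes over 2-fold higher in the ER had a cytosol median of 1.04, with 360 of 678 over 2-fold higher and 0 lower. Marked genes that were lower in the ER had a cytosol median of 0.56, with 65 of 232 over 2-fold higher and 3 lower, beside 524 of all 1456 marked genes (36.0%) over 2-fold higher. Unmarked genes that were lower in the ER had a cytosol median of -0.90, with 58 of 142 over 2-fold lower and 3 higher. Low ER scores of unmarked genes such as Odc1 and the D cyclins thus went with low cytosol scores, and those of most marked genes did not.

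By list the same contrast was seen in values. ER chaperones had a cytosol median of 1.76 beside -0.34 in the ER, and 25 of 31 were over 2-fold higher in the cytosol. Cytokines had a cytosol median of 2.49, with 13 of 15 higher, and tetraspanins of 1.75, with 6 of 8 higher. Collagens stood at 0.27 with 1 of 13 higher, and matrix proteins at 0.62 with 10 of 29. Of the 18 collagens and 36 matrix proteins compared in the ER, 17 and 33 were marked. Marked genes had a cytosol median of 0.70 with 36.0% over 2-fold higher, and all genes of 0.16 with 11.3%. Hspa5 scored 50.7 in the cytosol at 2 h and 7.72 in untreated cells, beside ER scores of 1735 at 2 h and 711 in untreated cells. How the fractions were scaled to each other is not stated, so levels are not compared between them.

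**Figure D5:**
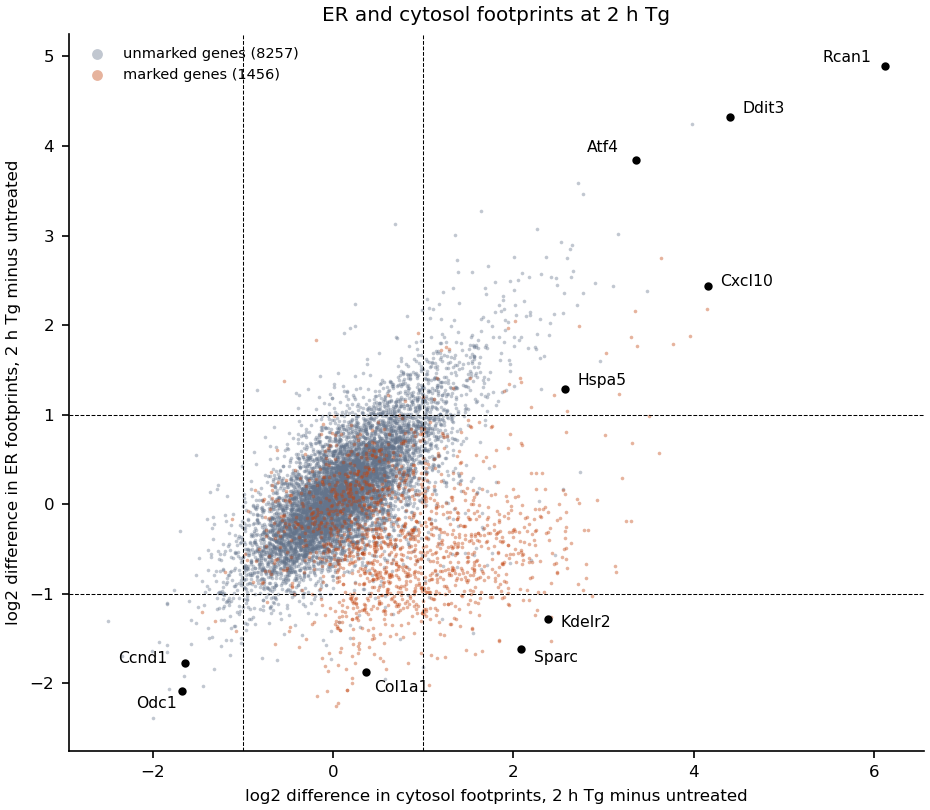
Log2 difference in ER footprints (vertical) against that in cytosol footprints (horizontal), 2 h Tg minus untreated, for 1456 marked and 8257 unmarked genes, with 2-fold marked by dashed lines. Unmarked genes run along the diagonal from Odc1 and Ccnd1 to Rcan1, and marked genes spread to the lower right, where Sparc and Kdelr2 lie.

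The counts at 2 h can be set beside those at the other times of Tg. Against untreated cells, the ER columns had 482, 594, 733 and 564 genes over 2-fold higher at 0.5, 1, 2 and 4 h (4.41%, 5.54%, 6.64% and 5.14%). Lower genes numbered 1676, 701, 511 and 261 (15.3%, 6.53%, 4.63% and 2.38%). The median of all genes also differed between these times, at -0.23, -0.09, 0.03 and 0.14. The ER columns summed to 359606, 432736, 456452 and 470888, beside 447133 in untreated cells. Neither these counts nor the list medians at these times were adjusted for such shifts. All 4 comparisons share the untreated ER column, so their values are not independent. Marked genes lay below unmarked ones by 0.60, 0.31, 0.53 and 0.31 at these times.

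The steps on either side of 2 h share the 2 h column but not the untreated one. From 1 to 2 h marked genes had a median of -0.10 and unmarked genes of 0.16, and from 2 to 4 h marked genes had a median of 0.29 and unmarked genes of 0.08. At 4 h 150 genes (1.37%) exceeded their 2 h score by over 2-fold and 145 (1.32%) lay over 2-fold below it. Of the 150, 97 were marked, and of the 145, 8 were. Among genes of above-median level, the highest steps to 4 h were those of Dnajb9 (79.7 at 2 h, 288 at 4 h), the cystine transporter Slc7a11 (10.8 and 41.0) and the glycine transporter Slc6a9 (7.38 and 27.9). The lowest of these genes were Irf1 (149 and 30.0), the NF-kappa B inhibitor Tnfaip3 (30.1 and 6.13), Gadd45g, Klf10 and Rcan1. These genes were chosen after their values were seen.

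Genes at the 2-fold limit show how close calls fell. Just inside the higher limit lay the decapping enzyme Dcp2, at 14.2 after 2 h and 6.61 in untreated cells, and just outside it Mzt1, at 64.3 and 31.7. At the lower limit the helicase Ddx17, at 15.3 after 2 h and 31.6 in untreated cells, was inside, and the disulfide isomerase P4hb, at 322 and 646, was outside.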

How the data were processed

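Per the labels' protocols, footprints came from nuclease digestion, ribosome pelleting and gel purification, and mRNA libraries from RNA depleted of ribosomal RNA and fragmented. The submitters' processing notes name Bowtie, with no version, and for the build nothing is given in the sources used here. Translation and mRNA columns were deposited as a score of unstated scale, pooled over the 2 replicates of a group, and ribosome density was deposited as a ratio of translation to mRNA. The authors also deposited a TRUE or FALSE column with no header (unit other). No counts were analysed here, so depth and counting precision are unknown, and p-values, replicate checks and the planned limma test were not possible.

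Differences used log2(score + 1) of genes with both scores. Density was compared as the log2 of the authors' ratio, which was checked against the quotient of footprint and mRNA scores. It lay outside 0.5 to 1.5 times this quotient in 0.467% of marked and 0.291% of unmarked genes at 2 h. In untreated cells these shares were 1.72% and 1.12%. Gene names are those of the table. Genes whose ID or symbol marks a predicted model, and histones, are called uncertain; whether they share reads was not tested. The genes, the 30 gene lists and 4 further ones (histones, Gadd45, D cyclins, prolactin-like) were chosen with earlier results of these data known. Named genes were the 15 highest and 15 lowest over 2-fold among genes of above-median level, up to 4 members over 2-fold farthest from 0 in each list (the 2 most abundant where none was), and 14 standard genes; other genes in the text were picked with their values in view. A few results that meet this rule are not reported here. Promoter windows came from RefSeq (GRCm38.p6), matched by transcript ID and, where that failed, by symbol or synonym. Protein features were planned and not used here.

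Alternatives were pseudocounts of 0.1 and 10, centring on the median of all genes, genes above the median level, genes scored in all 10 footprint columns, blanks taken as 0 and, added after seeing the data, no histone or predicted genes. A count counts as moved past 1.5 times, and a median when it shifts by 0.58 or more. Python 3.11.15, pandas 2.3.3, numpy 2.4.6 and matplotlib 3.10.9 were used, and the differences were checked on simulated data.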

Additional observations from a re-analysis of the deposited data

Results flagged for a closer look

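In 15 of the genes named by rule the score at 2 h was over 2-fold lower than in untreated cells in the ER and over 2-fold higher in the cytosol; the difference between the fractions was not tested, and no replicate values stand behind it. In the ER the log2 differences were -1.62 for Sparc, -1.53 for Timp3 and -1.46 for the matricellular protein Nov. They were -1.31 for Rpn2, -1.27 for Dad1 and -1.52 for Erp44, which act in glycosylation and folding. For the retrieval receptors they were -1.69 (Kdelr1) and -1.28 (Kdelr2), for the calcium pump Atp2a2 -1.16, for the tetraspanin Cd9 -1.18 and for the integrin chain Itgb5 -1.71. The actin crosslinker Flna stood at -1.03 and was the only unmarked gene among them. The prolactin-like genes Prl2c2, Prl2c3 and Prl2c4 stood at -1.64, -1.71 and -2.02, and as near-identical copies they are uncertain.

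In the cytosol the same genes scored higher at 2 h. Sparc scored 39.4 at 2 h and 8.51 in untreated cells (2.09), Kdelr2 41.1 and 7.07 (2.38), and Cd9 95.4 and 19.2 (2.26). The lowest cytosol differences of the 15 were those of Prl2c4 and Flna, both 1.06. Among all genes scored in both fractions 68 met both limits, 65 of them marked. These are 65 of the 232 marked genes lower in the ER, beside 524 of all 1456 marked genes (36.0%) higher in the cytosol. A cytosol score over 2-fold higher was thus less frequent among marked genes lower in the ER than among marked genes at large. A gene over 2-fold higher in the ER and over 2-fold lower in the cytosol was found in 0 of 678, beside 1.66% of 9713 genes lower in the cytosol.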

How the results depend on the processing

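A single gene's sign cannot turn with the pseudocount or the choice of genes, and centring takes off only 0.03. Among list medians, which could turn, no value over 2-fold changed sign under any alternative run. Some near 0 did: the median of all genes (0.03; -0.01 above the median level and -0.07 with blanks taken as 0), Psma3 and the medians of amino acid supply, aminoacyl-tRNA synthetases, cytokines and proteasome subunits, all between -0.07 and 0.01 under the alternative that turned them. The 733 genes higher and 511 lower became 1199 and 770 with a pseudocount of 0.1, 213 and 124 with a pseudocount of 10, and 385 and 309 among the 5519 genes above the median level; with blanks taken as 0 there were 792 lower. The 61 marked genes higher became 109 (0.1), 22 (10), 30 (above the median level) and 32 (scored in all 10 footprint columns), and the 360 lower became 84 (10), 210 and 225 under the last 3 of these. List medians moved with a pseudocount of 10, to 0.90 for upstream reading frame mRNAs (3.84 above the median level), 0.40 for ATF4 and CHOP targets, 0.42 for immediate early genes and -1.08 for D cyclins; a larger pseudocount shrinks low scores by construction. Of 265 medians under alternatives 260 stayed within the limit. For the 125 named genes only the pseudocounts and centring could change a value, because the other settings only select genes. With a pseudocount of 0.1 all 125 stayed on their side of 2-fold. With a pseudocount of 10, 96 stayed and 29 fell under 2-fold. When centred 123 stayed, and Ndufb3 and Tmsb4x fell under 2-fold. No paired analysis was possible because each group has 1 pooled value, and for the same reason no replicate could be left out. Unknown depth limits genes with low scores most.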
